A study of Mus musculus with 21 samples.

Results

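The genes described here belong to the calcium/calmodulin signaling pathway and were followed from sham to HF-HI cortex, paralog against paralog: the calmodulin genes Calm2 and Calm3, the CaMKII genes Camk2a, Camk2b, Camk2d and Camk2g, the CaMKIV gene Camk4, and the calcineurin catalytic subunit genes Ppp3ca and Ppp3cb. They were found by their GENCODE mouse symbols among the Ensembl genes of the table, and all 9 were present among 5544 genes. The cortex came from male C57BL/6 mice, wild-type (WT) and 12 weeks old by the labels. Of these mice, 10 were sham and 11 had received high-frequency head impact (HF-HI), a series of very mild impacts repeated over several days. Tissue was taken 24 h after the final impact, and the sham group underwent anesthesia and the procedure except for the impacts themselves. Total RNA was sequenced after removal of ribosomal RNA, as 1 library per mouse, and expression is given as the variance-stabilized value of the authors, which is normalized for library size and lies on a log2 scale.

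Calmodulin is the calcium sensor through which a rise of calcium in a neuron reaches most of the enzymes described here. Calcium-loaded calmodulin switches on CaMKII, a ring of kinase subunits that is abundant at excitatory synapses and that stays active after phosphorylating itself, and CaMKIV, a largely nuclear kinase that acts on transcription factors. It also switches on calcineurin, a phosphatase made of a catalytic A subunit and a calcium-binding B subunit, which removes phosphate from many of the same synaptic proteins and is best known for its role in synaptic depression.

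The paralogs are similar enough that their separation in the data has to be judged from their sequence. Calm2 and Calm3 encode the same protein, yet 78 of the 447 coding bases differ between Calm2 and Calm3, an identity of 82.55%. The stretch encoding the first calcium-binding EF-hand loop, codons 21 to 32 in exon 3 of each gene, is shown to make this visible, with capitals at the 7 of 36 bases that differ. Sequences are those of the GENCODE transcripts on GRCm38, the assembly also called mm10, and both genes lie on the minus strand.
Calm2 chr17:87435873-87435908: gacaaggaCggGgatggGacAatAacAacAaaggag
Calm3 chr7:16917667-16917702: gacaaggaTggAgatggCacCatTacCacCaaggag
Among CaMKII genes the coding identity ran from 76.8% for Camk2a and Camk2d to 79.57% for Camk2a and Camk2b, and it was 74.24% for Ppp3ca and Ppp3cb. The stretch around the threonine whose phosphorylation keeps CaMKII active, codons 280 to 293 in exon 11 with the threonine codon at 287, is shown for 3 of the paralogs, with capitals at the 15 of 42 bases that differ among them. Camk2d lies on the plus strand and the other two on the minus strand.
Camk2b chr11:5988979-5989020: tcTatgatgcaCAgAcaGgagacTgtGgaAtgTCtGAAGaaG
Camk2d chr3:126797720-126797761: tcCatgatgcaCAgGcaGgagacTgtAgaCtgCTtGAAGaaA
Camk2g chr14:20760421-20760462: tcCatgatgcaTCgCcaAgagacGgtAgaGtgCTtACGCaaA
Of the 100-base windows of each gene's reference transcript, about the length of a read, none was shared with another gene for the CaMKII, CaMKIV and calcineurin genes. Calm2 shared 11 of 1106 windows with Gm7308 and Calm3 shared 3 of 2191 with Gm5881, so the values of the calmodulin genes are uncertain at least to that extent. Only exact matches to annotated transcripts were counted, so reads placed with mismatches are not covered for any of the genes.

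Of all genes in the table, 66.3% differed between HF-HI and sham at an adjusted p under 0.05 (limma's moderated test, two-sided, Benjamini-Hochberg over all 5544 genes), 32.6% higher and 33.6% lower in HF-HI. Centring each library on its median turned the 1810 higher and 1864 lower genes into 1448 and 2376, and quantile normalization into 1547 and 2242. For each library a line was fitted through the deviations of its genes from their means over all libraries, against exonic GC content. Its slope, in log2 units per 10% GC, ran from -0.231 to 0.0058 in sham and from -0.0385 to 0.161 in HF-HI. The slope is thus relative to the mean of all libraries, and it moved with the groups. For this reason the difference of a named gene or pair is also given after the GC trend of every library was removed. This is done wherever removal ended a call, turned a direction or moved a difference by over 1.5 times. Depth relative to the median library, estimated from the spacing of the values, was 0.580 to 1.26 in sham and 0.548 to 1.63 in HF-HI. The cortical neuron genes Slc17a7 and Tbr1 were present in every library. Markers of excitatory neurons moved with the groups: 5 of the 7 tested rose and none fell, or 6 and 0 with the GC trend removed. The log2 of their summed level was 13.18 to 13.57 in sham and 13.93 to 14.23 in HF-HI. Of the 5 interneuron markers tested, 2 rose and none fell, with sums of 12.795 to 13.10 in sham and 12.74 to 13.19 in HF-HI. Slc32a1 rose by 0.64, or 0.30 with the GC trend removed, and Sst by 0.63. Of the 9 astrocyte markers 4 rose and 2 fell, or 3 and 3 with the GC trend removed. Their summed levels were 16.39 to 16.48 in sham and 16.475 to 16.565 in HF-HI. Of the 2 microglial markers tested 1 rose and 1 fell, or 0 and 1 with the GC trend removed. Their sums were 10.53 to 10.72 and 10.425 to 10.64. Of the 7 oligodendrocyte markers tested 2 rose and none fell, or 1 and 2 with the GC trend removed. Their sums were 15.24 to 15.96 in sham and 15.27 to 15.96 in HF-HI. Of the 2 endothelial markers tested 1 rose and 1 fell, also with the GC trend removed. The part of these markers in the results that follow was not tested, and in bulk tissue fewer cells of a type and less RNA per cell cannot be told apart. HF-HI replicate 3 stood apart, with a summed level of choroid plexus markers of 14.13 against at most 12.87 in the other libraries, and the lowest summed level of striatal neuron markers, 11.71.

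Of the 9 genes, 6 passed the threshold, which is 66.7% and thus close to the share among all genes. Camk2a, Camk2b and Camk2g rose, while Calm2, Ppp3ca and Ppp3cb fell. Calm3, Camk2d and Camk4 did not pass. The median difference of the 9 genes was -0.015, against -0.0086 for all genes. The groups did not overlap for 1 of them, Camk2b, where 13.5% of all genes had groups without overlap. In a fit without HF-HI replicate 3, 5 of the 9 genes passed, with Ppp3ca lost.

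**Figure D1:**
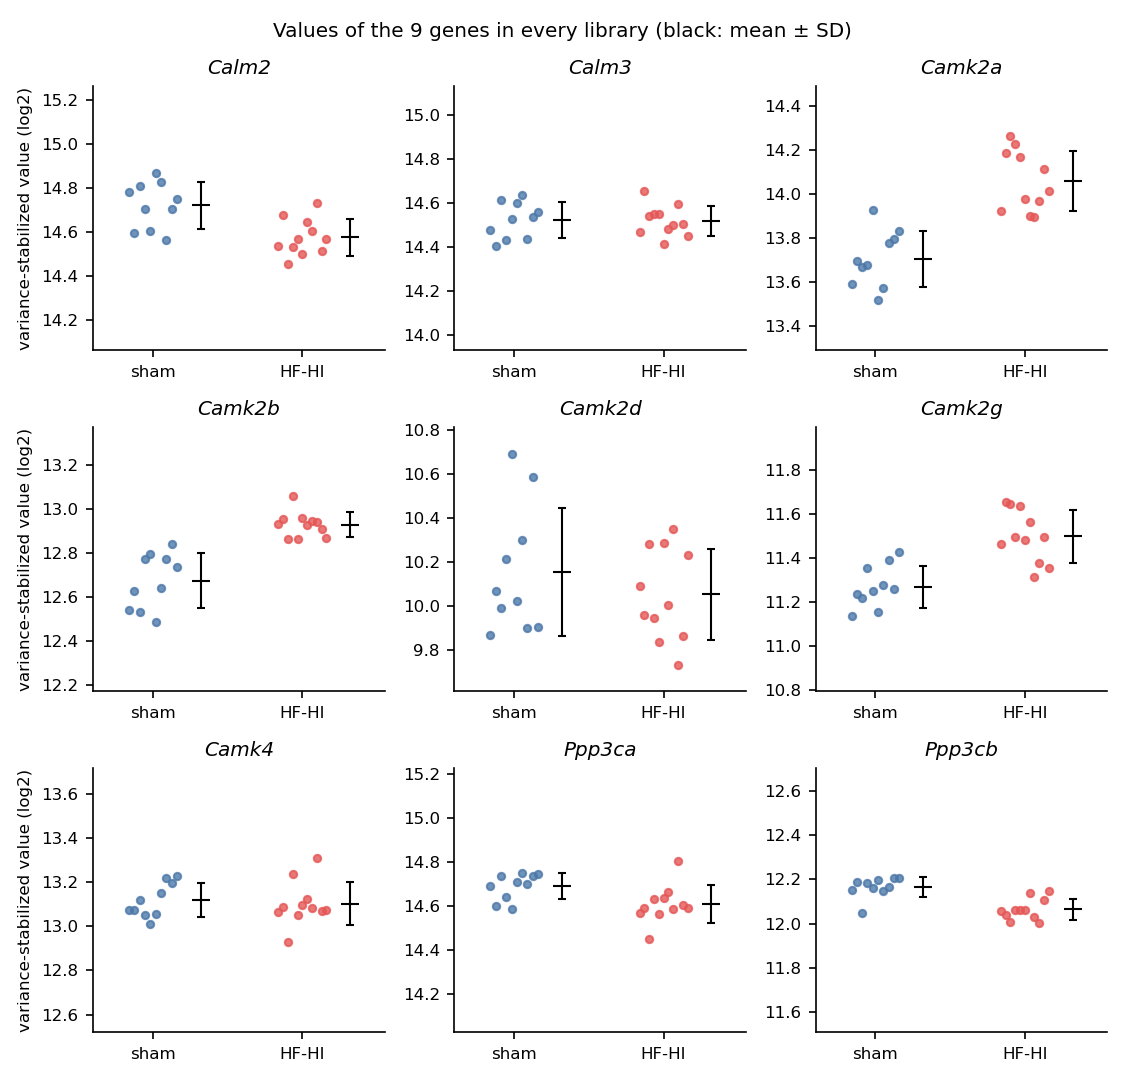
Variance-stabilized value (log2) of each of the 9 genes in every library, with sham (n = 10) in blue, HF-HI (n = 11) in red and the mean ± SD in black. Each panel spans the same range of 1.2 log2 units, and all 11 HF-HI libraries lie above all 10 sham libraries for Camk2b.

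Camk2a (chr18:60925618-60988152, plus strand), the CaMKII alpha subunit of forebrain excitatory neurons, had the largest difference of the 9 genes. Sham libraries lay between 13.52 and 13.93 (median 13.69) and HF-HI libraries between 13.90 and 14.26 (median 14.01). The groups met only at their edges, with 8 of 11 HF-HI libraries above every sham library and 9 of 10 sham libraries below every HF-HI library. The mean rose from 13.71 ± 0.127 (SD, n = 10) to 14.06 ± 0.137 (SD, n = 11), a difference of 0.35 (SE 0.0547, limma's adjusted p = 7.6e-06), or 1.28-fold with a 95% interval of 1.18 to 1.38. After removal of the GC trend the difference was 0.25 (adjusted p = 8.6e-05).

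Camk2b (chr11:5969644-6066362, minus strand) encodes the CaMKII beta subunit, which binds actin and holds the kinase in spines. It ran from 12.49 to 12.84 in sham (median 12.69) and from 12.86 to 13.06 in HF-HI (median 12.93). The lowest HF-HI library lay just above the highest sham library, and the spread was wider in sham (SD 0.125) than in HF-HI (SD 0.0557). The mean difference was 0.25 (SE 0.0413, limma's adjusted p = 1.3e-05), or 1.19-fold. With the GC trend removed it shrank to 0.092, with an adjusted p of 0.0314.

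Camk2g (chr14:20734875-20794088, minus strand), whose product has been described as a carrier of calmodulin to the nucleus, rose by a similar amount from a lower level. Its values were 11.13 to 11.42 in sham (median 11.25) and 11.31 to 11.65 in HF-HI (median 11.49). As for Camk2a, 8 of 11 HF-HI libraries were above every sham library. The difference was 0.23 (SE 0.0461, limma's adjusted p = 1.7e-04), or 1.17-fold, and 0.14 (adjusted p = 0.0043) with the GC trend removed.

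Camk2d (chr3:126596302-126846326, plus strand), the delta subunit best known from heart, was the CaMKII gene that did not pass. Its values were the most variable of the 9 genes, 9.87 to 10.69 in sham (median 10.05) and 9.73 to 10.35 in HF-HI (median 10.003). Sham replicates 5 and 9, at 10.69 and 10.58, were above all HF-HI libraries. The mean difference was -0.10 with a 95% interval of -0.31 to 0.11 (limma's adjusted p = 0.379), and it was 0.028 after removal of the GC trend. As deposited the upper end of the interval lay below the differences of Camk2a, Camk2b and Camk2g, but with the GC trend removed it reached 0.24, above those of Camk2b and Camk2g.

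Camk4 (chr18:32934931-33191228, plus strand) differed little. Its value was 13.01 to 13.23 in sham (median 13.10) and 12.93 to 13.31 in HF-HI (median 13.09), so that the HF-HI range enclosed the sham range. The difference of -0.015 had a 95% interval of -0.096 to 0.065 (limma's adjusted p = 0.743). With the GC trend removed the difference was -0.033 (adjusted p = 0.477). The lowest value of Camk4 belonged to HF-HI replicate 3, and without that library the difference as deposited was 0.0022.

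Among the calmodulin genes Calm2 fell and Calm3 did not pass. Calm2 (chr17:87433412-87446935, minus strand) lay between 14.56 and 14.87 in sham (median 14.73) and between 14.46 and 14.73 in HF-HI (median 14.57). The ranges overlapped, with 5 of 11 HF-HI libraries below every sham library and 5 of 10 sham libraries above every HF-HI library. Calm2 fell by 0.15 (SE 0.0407, limma's adjusted p = 0.0033), which is 0.904-fold with a 95% interval of 0.853 to 0.958. Removal of the GC trend left -0.064 and ended the call (adjusted p = 0.0962).

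Calm3 (chr7:16915379-16924114, minus strand) had nearly the same range in both groups, 14.41 to 14.64 in sham (median 14.53) and 14.42 to 14.66 in HF-HI (median 14.51). The difference was -0.0039 with a 95% interval of -0.074 to 0.066 (limma's adjusted p = 0.924). Calm3 is the gene whose difference moved most with the treatment of GC content: its exons hold 58.6% GC, the highest of the 9 genes and above the median of 47.6% of all genes, and with the GC trend removed it was lower in HF-HI by -0.26 (adjusted p = 3.6e-04).

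Both calcineurin catalytic genes fell by small amounts as deposited, and neither passed once the GC trend was removed. Ppp3ca (chr3:136670124-136937727, plus strand), the A-alpha subunit that predominates in brain, ran from 14.59 to 14.75 in sham (median 14.70) and from 14.45 to 14.80 in HF-HI (median 14.59). HF-HI replicate 9 was above all sham libraries and 4 HF-HI libraries were below them. Ppp3ca fell by 0.081 (SE 0.0336, limma's adjusted p = 0.0370), a call that was lost in 11 of the 21 fits that left out 1 library, among them the fit without HF-HI replicate 3 (-0.065, adjusted p = 0.0725). With the GC trend removed the difference was 0.015 (adjusted p = 0.691).

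Ppp3cb (chr14:20499364-20546573, minus strand), the A-beta subunit, had the narrowest spread within groups, with an SD of 0.0461 in sham and 0.0480 in HF-HI. Values were 12.05 to 12.21 in sham (median 12.17) and 12.00 to 12.15 in HF-HI (median 12.06). Apart from sham replicate 3, at 12.05, all sham libraries were above all HF-HI libraries. Ppp3cb fell by 0.10 (SE 0.0256, limma's adjusted p = 0.0015), or 0.933-fold. This call held in each of the 21 fits that left out 1 library, but its exons have the lowest GC content of the 9 genes, 38.6%, and with the GC trend removed the difference turned to 0.042 (adjusted p = 0.301).

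**Figure D2:**
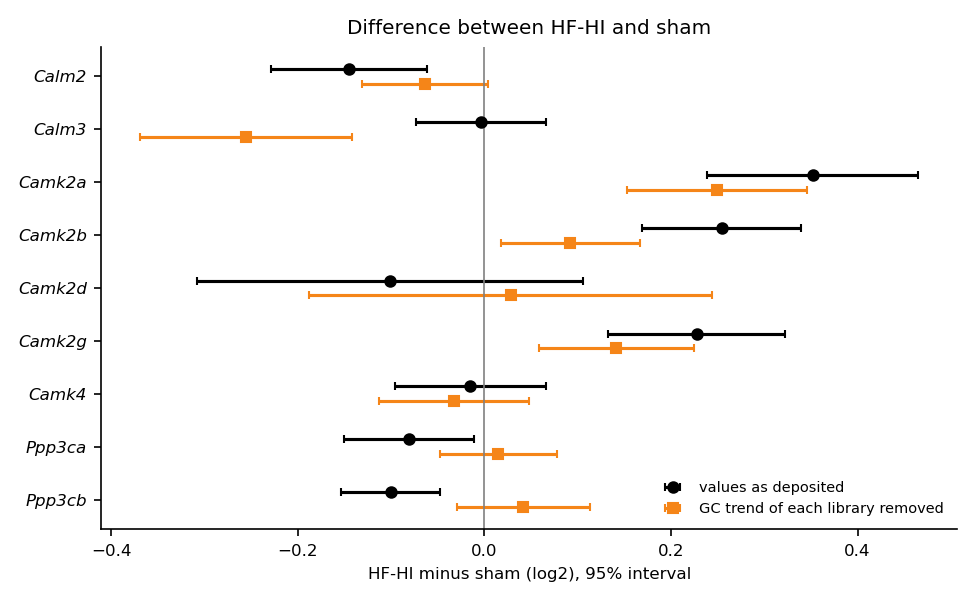
Difference between HF-HI (n = 11) and sham (n = 10) for each gene on the log2 scale, with 95% intervals from limma, for the values as deposited (black circles) and after removal of each library's GC trend (orange squares). The intervals of Camk2a, Camk2b and Camk2g lie above 0 in both, those of Calm2, Ppp3ca and Ppp3cb lie wholly below 0 only in the values as deposited, and that of Calm3 lies wholly below 0 only after removal.

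The plot of differences shows which directions stood under both treatments of the data. Camk2a, Camk2b and Camk2g were called higher in both, and Camk2a remained the largest of the rises. None of the 3 falls was called in both.

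Whether paralogs responded differently was tested on the difference between them within each library, in which library size and gene length cancel. For 8 pairs a permutation test over libraries was used (two-sided, 100000 resamples, Benjamini-Hochberg over the 8 pairs), and 5 pairs passed. The Camk2d response was separated from that of each other CaMKII gene, Camk2a from Camk2g, and Calm2 from Calm3.

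Camk2a exceeded Camk2d by 3.21 to 3.93 log2 units in sham (median 3.56) and by 3.55 to 4.33 in HF-HI (median 3.98). Of the 11 HF-HI libraries, 6 lay above the sham range. The responses differed by 0.45 with a 95% interval of 0.21 to 0.70 (permutation test, adjusted p = 0.0065). The corresponding value for Camk2b against Camk2d was 0.36, with an interval of 0.14 to 0.57 (permutation test, adjusted p = 0.0070). For Camk2d against Camk2g it was -0.33, with an interval of -0.59 to -0.067 (permutation test, adjusted p = 0.0281), a call lost in 5 of the 21 fits without a library. Camk2d had the lowest level and the largest spread of the 9 genes. With the GC trend removed none of the Camk2d pairs passed, their differences being 0.22, 0.064 and -0.11.

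Among the CaMKII genes that rose, Camk2a rose more than Camk2g by 0.12, with an interval of 0.025 to 0.22 (permutation test, adjusted p = 0.0281). This was 0.11 (permutation test, adjusted p = 0.0833) with the GC trend removed, 0.027 (permutation test, adjusted p = 0.834) with quantile normalization, and 4 of the 21 fits without a library lost the call. Under quantile normalization the rises of Camk2a, Camk2b and Camk2g were 0.23, 0.21 and 0.20. Camk2a against Camk2b gave 0.097, with an interval of -0.013 to 0.21 (permutation test, adjusted p = 0.107), and 0.16 (permutation test, adjusted p = 0.0422) with the GC trend removed. For that pair 6 HF-HI libraries were above the sham range, although the means did not differ past the threshold as deposited. Camk2b against Camk2g gave 0.027, with an interval of -0.082 to 0.14 (permutation test, adjusted p = 0.644).

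Calm2 exceeded Calm3 by 0.075 to 0.30 in sham (median 0.19) and lay between -0.083 and 0.17 relative to it in HF-HI (median 0.070). Of the 10 sham libraries, 8 were above every HF-HI library. The responses differed by -0.14, with an interval of -0.21 to -0.076 (permutation test, adjusted p = 0.0011), the smallest adjusted p of the 8 pairs. The pair differs in GC content by more than any other, 42.9% for Calm2 and 58.6% for Calm3, and with the GC trend removed the difference reversed to 0.19 (permutation test, adjusted p = 0.0013). The direction of this pair thus depends on how GC content is treated.

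Ppp3ca and Ppp3cb did not differ in response beyond the spread. The difference was 0.019, with an interval of -0.063 to 0.10 (permutation test, adjusted p = 0.644), against falls of 0.081 and 0.10 for the genes themselves. HF-HI replicate 9 had the highest value of the pair, 2.80 against at most 2.68 in sham.

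**Figure D3:**
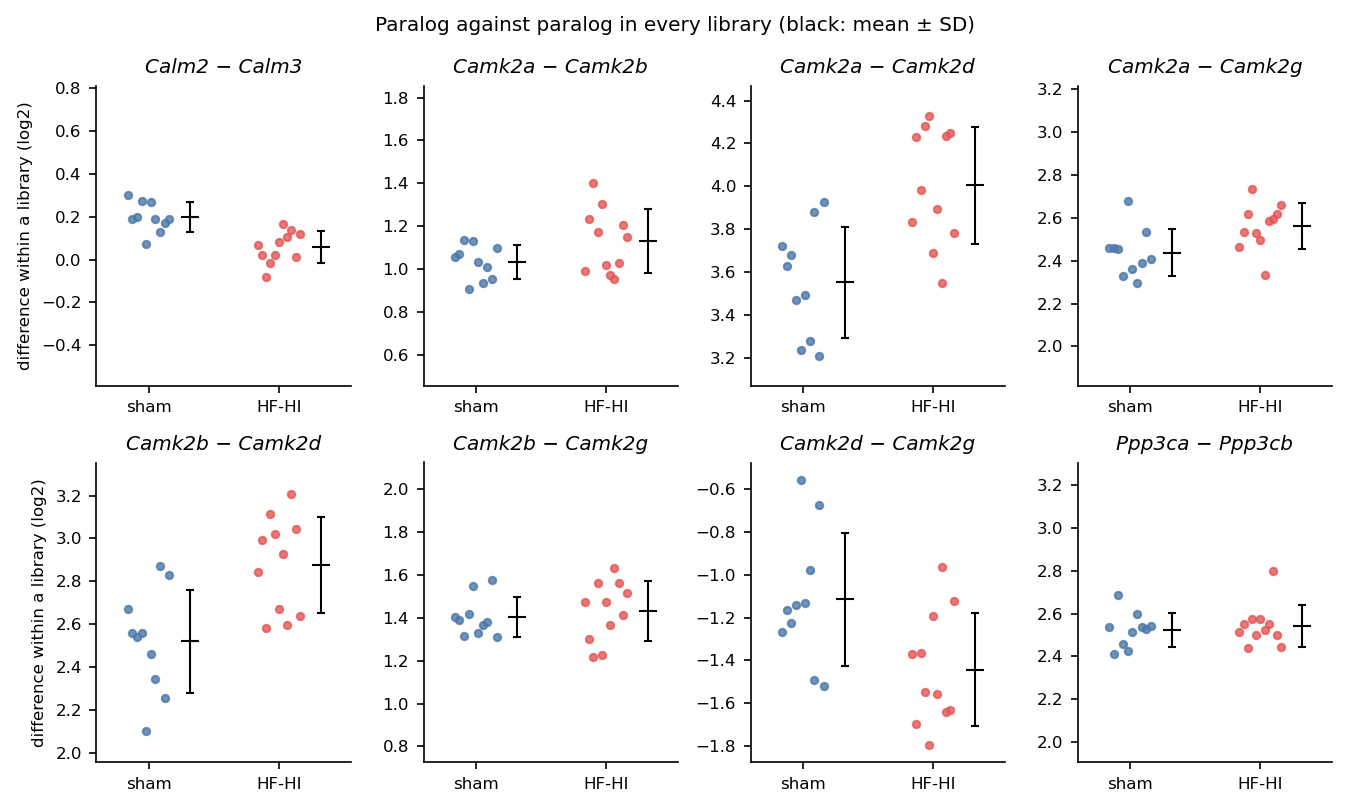
Difference between the members of each paralog pair within a library (log2 units), with sham (n = 10) in blue, HF-HI (n = 11) in red and the mean ± SD in black. Each panel spans 1.4 log2 units, and the groups overlap in all 8 pairs.

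In the plot of paralog pairs the shift between groups is clearest for Calm2 against Calm3, and widest for the pairs with Camk2d. No pair separates the groups fully.

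Levels of different genes were compared per kilobase of the union of each gene's exons, as the log2 of the back-transformed value per kilobase. In sham the order was Calm2 at 14.17 ± 0.106, Calm3 at 13.25 ± 0.0819, Camk4 at 11.42 ± 0.0765, Ppp3ca at 11.37 ± 0.0598, Camk2a at 10.81 ± 0.127, Camk2b at 9.48 ± 0.125, Ppp3cb at 9.03 ± 0.0461, Camk2g at 8.59 ± 0.0948 and Camk2d at 5.66 ± 0.290 (SD, n = 10 each). In sham only Camk4 and Ppp3ca overlapped among neighbours of this order. By exon union the order was the same in HF-HI, but there the ranges of Ppp3ca and Camk2a overlapped (11.13 to 11.48 and 10.997 to 11.36), as did those of Ppp3cb and Camk2g (8.87 to 9.01 and 8.63 to 8.97). The order depended on the length in places: per kilobase of the longest transcript Ppp3ca came before Camk4 in sham, 12.44 against 11.68, and Camk4 and Camk2a exchanged places between the groups, 11.68 and 11.39 in sham and 11.66 and 11.74 in HF-HI.

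By the same scale Camk2a made up 60.8% ± 1.298 (SD, n = 10) of the summed CaMKII level among sham libraries and 62.8% ± 1.93 (SD, n = 11) among HF-HI libraries. Camk2b held 24.3% ± 0.880 and 23.5% ± 1.70, and Camk2g 13.1% ± 0.773 and 12.4% ± 0.723. Camk2d had the smallest share, 1.74% ± 0.307 in sham and 1.31% ± 0.229 in HF-HI. The order of the shares was the same in both groups. The exon union of Camk2d spans 22493 bases against 5524 in its longest transcript, and with the longest transcripts its share was 4.06% in sham and 3.09% in HF-HI, with Camk2a at 52.2% and 54.5%. Of the Calm2 and Calm3 sum, Calm2 held 65.5% ± 1.08 in sham and 63.2% ± 1.20 in HF-HI, and Ppp3ca held 83.5% ± 0.765 and 83.7% ± 0.879 of the calcineurin sum. These shares are descriptions and were not tested apart from the pairs.

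The genes whose variation most resembled that of each member were found by the correlation of deviations from the group means over the 21 libraries, which share depth and GC content effects, and are given without a test. Nearest to Camk2a were Nav2 (r = 0.93), Grin1 (0.87) and Srgap3 (0.87), and nearest to Camk2b were Mink1 (0.89), Crmp1 (0.87) and Ppp1r7 (0.87). Camk2g was nearest to Trim66 (0.84), Snap25 (0.79) and Zbtb16 (0.79), and Camk2d to Lypd1 (0.88), Epha6 (0.85) and Grin3a (0.85). The CaMKII genes thus did not share their 3 nearest genes. Their correlations with one another ran from -0.14 for Camk2d and Camk2g to 0.61 for Camk2a and Camk2g. That of Calm2 with Calm3 was 0.66. Calm2 was nearest to Mff (0.93), Atp6v1d (0.89) and Pls3 (0.89), and its deviations had a correlation of -0.80 with the GC slope of the libraries, the strongest of the 9 genes. Calm3 was nearest to Cdk14 (0.80), Rpgrip1l (0.79) and Neurod6 (0.77). Camk4 and Ppp3ca varied together (0.85), a value of 0.68 without the 2 libraries farthest from the median. They were followed by Rbfox1 (0.81) and Rragd (0.76) for Camk4 and accompanied by Ano3 (0.86) and Plcb1 (0.82) for Ppp3ca. Without the 2 libraries farthest for Ppp3ca, the values for Ano3 and Plcb1 were 0.67 and 0.68. Without the 2 farthest for Camk2d, its values with Lypd1, Epha6 and Grin3a were 0.77, 0.77 and 0.72. Ppp3cb had no close neighbour, with Ncstn (0.66), Elavl1 (0.61) and Arl15 (0.60) at its head, and its correlation with Ppp3ca was -0.036.

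The partners of these genes were described by 6 lists of the pathway, with counts from the fit across all genes to be read against the 32.6% of all genes that were higher and the 33.6% that were lower. Among calmodulin kinases and their regulators, 12 of 20 listed genes were in the table, of which 6 rose and 4 fell, with a median difference of 0.080. These counts were 3 and 4 with the GC trend removed. Dclk2, a doublecortin-like kinase, rose by 0.28 (SE 0.0609, limma's adjusted p = 3.3e-04), or 0.17 with the GC trend removed, and Dapk1, a death-associated kinase, by 0.25 (adjusted p = 2.3e-04). Camk2n1, an inhibitor of CaMKII, went from 13.74 ± 0.131 (SD, n = 10) to 13.96 ± 0.0707 (SD, n = 11), a rise of 0.21 (adjusted p = 2.0e-04) that was 0.082 (adjusted p = 0.0813) with the GC trend removed. The kinases that activate CaMKI and CaMKIV moved in opposite directions: Camkk2 rose by 0.17 (adjusted p = 6.8e-04), or 0.072 (adjusted p = 0.128) with the GC trend removed, while Camkk1 fell by 0.15 (adjusted p = 0.0416, lost in 13 of the 21 fits without a library), and by 0.31 with the GC trend removed. Ppm1f, a phosphatase that switches CaMKII off, fell by 0.13 (adjusted p = 0.0178) and Camk1 by 0.12 (adjusted p = 0.0170). Both falls were larger with the GC trend removed, with differences of -0.26 and -0.18.

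Of the calcineurin subunits, regulators and anchors, 8 of 12 were in the table, of which 5 rose and 2 fell, or 4 and 2 with the GC trend removed, with a median difference of 0.19. Ppp3r1, which encodes the calcium-binding B subunit, ran from 13.37 to 13.82 in sham (median 13.70) and from 13.82 to 14.06 in HF-HI (median 13.91), ranges that overlapped only at 13.82. Ppp3r1 rose by 0.28 (SE 0.0509, limma's adjusted p = 4.9e-05), and by 0.39 (adjusted p = 5.3e-07) with the GC trend removed. Cabin1, an inhibitor of calcineurin, rose by 0.27 (adjusted p = 5.3e-04), or 0.16 with the GC trend removed, and Rcan2, a regulator that binds it, by 0.25 (adjusted p = 3.4e-04). The related regulator Rcan1 fell by 0.21 (adjusted p = 0.0095), or by 0.34 with the GC trend removed, and Ppia, the cyclophilin through which cyclosporin acts on calcineurin, fell by 0.28 (adjusted p = 6.3e-06). The genes named from this list kept their calls with the GC trend removed, as did those of the kinase list apart from Camk2n1 and Camkk2.

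Among calmodulin genes, calmodulin reservoirs and calcium sensors, 16 of 20 were in the table, 4 rose and 4 fell, or 4 and 5 with the GC trend removed, with a median difference of -0.051. The largest difference of all the pathway genes was that of Nrgn, neurogranin, which holds calmodulin at low calcium in excitatory neurons. Its value was 10.23 to 10.99 in sham (median 10.67) and 11.66 to 12.42 in HF-HI (median 11.88), with no overlap, and it rose by 1.32 (SE 0.0985, limma's adjusted p = 3.1e-10), or 1.07 with the GC trend removed. Pcp4l1, a relative of the calmodulin regulator Pcp4, rose by 0.72 (adjusted p = 2.7e-08) without overlap, and Ncs1, a neuronal calcium sensor, by 0.50 (adjusted p = 2.4e-07). The sensor Ncald fell by 0.27 (adjusted p = 1.5e-05), Marcks, a membrane protein that binds calmodulin, by 0.22 (adjusted p = 2.4e-04), and the astrocyte calcium-binding gene S100b by 0.20 (adjusted p = 0.0040).

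Of the calmodulin-activated enzymes and channels, 14 of 20 were in the table, 3 rose and 3 fell, or 2 and 4 with the GC trend removed, with a median difference of 0.012. The guanine nucleotide exchange factor Rasgrf1 rose by 0.46 (adjusted p = 2.5e-06), the plasma membrane calcium pump Atp2b2 by 0.40 (adjusted p = 2.0e-08) and the adenylyl cyclase Adcy1 by 0.16 (adjusted p = 6.4e-04), the last being 0.053 (adjusted p = 0.224) with the GC trend removed. The phosphodiesterase Pde1b fell by 0.34 (adjusted p = 0.0027), the inositol trisphosphate kinase Itpka by 0.30 (adjusted p = 4.3e-04) and the spectrin Sptan1 by 0.096 (adjusted p = 0.0012). Itpka and Sptan1 fell further with the GC trend removed, with differences of -0.61 and -0.16. Pde1b is strongly expressed in striatum, and the summed level of the striatal neuron markers, 5 of 6 in the table, was 12.46 to 12.85 in sham and 11.71 to 13.01 in HF-HI. Their part in the difference of Pde1b was not tested.

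Downstream lists leaned to one side. Of the transcription factors and coactivators, 11 of 21 were in the table, 9 rose and 1 fell, with a median difference of 0.26. Camta2, a calmodulin-binding transcription activator, rose by 1.07 (adjusted p = 6.0e-09), Crtc1, a CREB coactivator that calcineurin sends to the nucleus, by 0.57 (adjusted p = 6.9e-06) and Mef2d by 0.55 (adjusted p = 5.9e-07). Creb1, a target of CaMKIV, fell by 0.18 (adjusted p = 0.0064), a difference of -0.041 (adjusted p = 0.385) with the GC trend removed. Of the synaptic substrates and anchors of CaMKII and calcineurin, 18 of 20 were in the table, 10 rose and 1 fell, with a median of 0.21. Shank3, a postsynaptic scaffold, rose by 1.07 (adjusted p = 5.7e-10), Ppp1r9b, spinophilin, by 0.70 (adjusted p = 9.1e-07) and the dynamin Dnm1 by 0.53 (adjusted p = 3.5e-08), while synapsin Syn2 fell by 0.17 (adjusted p = 0.0016). After removal of the GC trend the differences were 0.36 for Ppp1r9b, 0.32 for Dnm1, 0.72 for Shank3 and 0.83 for Camta2. With the GC trend removed the counts were 10 higher and 0 lower for the first of these lists, and 12 higher and 1 lower for the second. The excitatory neuron markers named above moved in the same direction as both lists, and their part was not tested.

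**Figure D4:**
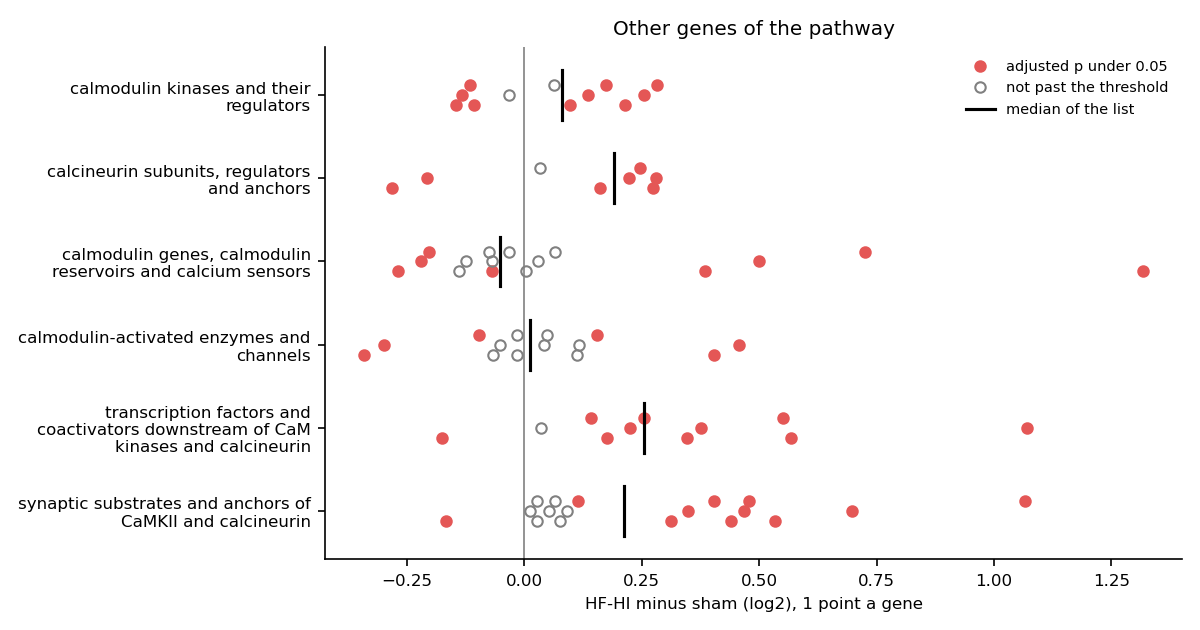
Difference between HF-HI (n = 11) and sham (n = 10) on the log2 scale for the genes of 6 pathway lists other than the 9 genes, 1 point a gene, filled red where limma's adjusted p was under 0.05, with a black bar at the median of each list. The farthest point to the right, at 1.32, is Nrgn, and the 2 lists at the bottom lie mostly to the right of 0.

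The plot of pathway lists leaves out the CaMKII genes, of which 3 rose by 0.23 to 0.35. The medians of the lists ran from -0.051 to 0.26, and the median absolute difference of all genes was 0.16. Nrgn, Camta2 and Shank3 rose by more than 1 log2 unit as deposited, and with the GC trend removed Nrgn alone of them did, at 1.07.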

How the data were processed

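Values were taken from the table the authors deposited, variance-stabilized values on a log2 scale for 5544 Ensembl genes in 21 libraries. Per the paper's methods, stranded total RNA libraries were aligned to mm10 with STAR and counted per transcript with eXpress, and the submitters' processing notes name STAR and DESeq2; versions of STAR and eXpress are not given in the sources used here. Total depth is unknown, so that no interval for counting error is given, and precision rests on how far mice of a group differed (median SD 0.104). Differences on this scale understate the change of genes with few reads.

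Symbols, positions, exon lengths and GC content came from GENCODE vM21 on GRCm38 (5541 genes with a symbol, 5539 with GC content). The comparison of HF-HI with sham used limma 3.58.1 (R 4.3.3, eBayes with a trend) at an adjusted p threshold of 0.05, with no filter on low values. Pairs were compared by permutation in Python 3.11.15 with numpy 2.4.6, pandas 2.3.3 and scipy 1.17.1. Their intervals came from a t distribution with pooled variance, which assumes an equal spread in both groups. The GC trend was removed with a lowess curve of span 0.3 (statsmodels 0.14.6) on deviations from the mean of all libraries, which also removes any difference between groups that follows GC content. Relative depth came from the spacing of values between 500 and 600 after back-transformation. Scripts were tested on simulated data. Alternatives were other thresholds (0.1, and a minimum difference of 0.25), eBayes without a trend, median centring, quantile normalization, no genes of the lowest quartile, the Wilcoxon rank-sum test, removal of the GC trend, a replicate block, relative depth as a covariate, longest transcripts and leaving out each library.

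Named genes are the 9 members, up to 3 rises and 3 falls with the largest difference of each pathway list, the 3 genes most like each member, and Ppp3r1, Camkk2, Camk2n1, Rcan2 and Nrgn. Some items are not reported here. Members and lists were chosen with earlier results of these data known.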

Additional observations from a re-analysis of the deposited data

Results flagged for a closer look

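Among 17 tests for a library far from the others of the sham group, for the 9 genes and the 8 paralog pairs, 1 value stood out. Ppp3cb in sham replicate 3 was 12.05, the lowest of the group, against a median of 12.18 in the other sham libraries, with a gap to the next library of 0.635 of the range of the group. Chance flags about 1 in 20 groups, so about this many are to be expected among the tests made. Ppp3cb stayed past the threshold without that library. The HF-HI group, with 11 libraries, was too large for this test.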

How the results depend on the processing

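Requiring an absolute difference of 0.25 reduced the genes past the threshold from 3674 to 1433, and the members from 6 to 2, Camk2a and Camk2b. The count of paralog pairs, 5, was 4 with quantile normalization, which lost Camk2a and Camk2g. It was 2 with the GC trend removed (Calm2 and Calm3 in the reverse direction, and Camk2a and Camk2b, which was not among the 5). The replicate block gave 3, losing Camk2a and Camk2g and Camk2d and Camk2g, and the block with the GC trend removed gave 2. The count was 3 to 5 when a library was left out, with 3 without sham replicate 7 or without HF-HI replicate 4.

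With the GC trend removed the difference turned to 0.0279 for Camk2d, 0.0147 for Ppp3ca and 0.0417 for Ppp3cb, and that of the pairs to 0.192 for Calm2 and Calm3, -0.0491 for Camk2b and Camk2g and -0.0270 for Ppp3ca and Ppp3cb. With the GC trend removed and the replicate block these were 0.0166, 0.0211, 0.0408, 0.198, -0.0599 and -0.0197. The difference of Calm3 turned to 0.00296 with the block and 0.00564 with relative depth as a covariate. Leaving out a library gave -0.0176 to 0.0088 for Calm3, -0.0358 to 0.0022 for Camk4 and -0.0064 to 0.0372 for Ppp3ca and Ppp3cb. The cause of these changes was not tested.

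Replicate numbers did not pair the libraries: deviations of libraries of the same number had correlations of -0.31 to 0.36, and 0 of 10 sham libraries were closest to their own number. The block left 3498 genes and 5 members past the threshold, with Ppp3ca at an adjusted p of 0.0584, and relative depth as a covariate gave it 0.0641. Camk2a and Camk2b were called under every alternative listed.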
